A study of Mus musculus with 6 samples.

Results

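The genes described here encode the machinery that copies DNA in S phase, read out in the cortex of mouse embryos at E18.5. They are 47 genes chosen by symbol, and all 47 were found among the 17348 genes of the deposited table. RNA was sequenced from cortices of 2 genotypes with 3 libraries each. Control embryos (Ctrl, called WT in the labels) carried floxed Ybx1 alleles without Cre according to the study's account of its mouse lines, whereas its sequencing methods call the controls wild type. Knockout embryos (cKO) were Nestin-Cre, Ybx1 fl/fl. The floxed segment spans several exons of Ybx1, which encodes a cold-shock domain protein that binds RNA and reads 5-methylcytosine in mRNA. Nestin-Cre acts in neural progenitors and their progeny throughout the nervous system, and cells of other origin in the cortex, such as microglia, keep the gene. The study asked whether progenitors without Ybx1 pass normally from G1 into S phase. Transcripts of the replication machinery bear on that step only indirectly, since whole cortex mixes cycling cells with cells that have left the cycle.

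DNA replication begins at origins that are marked by the origin recognition complex and licensed in G1 by loading the ring-shaped MCM helicase. At the start of S phase Cdc45 and the GINS complex turn the loaded ring into an active helicase, polymerase alpha-primase lays down primers, and polymerases delta and epsilon extend them with the sliding clamp PCNA. Many of these genes are transcribed under E2F factors, which the retinoblastoma proteins hold in check until late G1. In the embryonic cortex, cycling cells are found mainly among radial glia and intermediate progenitors of the germinal zones, while neurons have left the cycle.

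The libraries held 15091951 to 16885451 estimated counts, and 3 counts corresponded to 0.176 to 0.206 CPM (the estimated count scaled to a common library size after TMM normalization). Ybx1 was measured at 1020, 1300 and 956 CPM in Ctrl and at 24.0, 24.8 and 24.9 CPM in cKO. It fell by 5.47 on the log2 scale (SE 0.164, adjusted p = 6.95e-07, edgeR's quasi-likelihood test). The groups also differed in sex-linked transcripts, since Kdm5d, a Y-linked gene, had 1116, 856 and 1112 counts in Ctrl and 0 in each cKO library. Embryo sex and genotype cannot be told apart in these libraries. Of the 13570 genes that passed the filter on low counts, 10 (0.0737%) had an adjusted p under 0.05.

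None of the 47 replication genes was among those 10, and the smallest adjusted p among them was 0.585. With DESeq2 the count was also 0. All 47 passed the filter on low counts, with 26 to 2652 counts in any library. A negative log2 fold change was found for 39 of them (83.0%), compared with 49.4% of all genes tested. The fold changes were small, from -0.51 to 0.21 on the log2 scale with a median of -0.16, against a median of 0.00 over all genes tested. At an unadjusted p under 0.05, 3 genes were lower in cKO (Chaf1b, Lig1 and Rfc4) and 0 were higher, where the background over all genes tested was 3.49% lower and 3.14% higher. Every cKO library lay below every Ctrl library for 6 genes (Mcm7, Pold3, Rfc3, Rfc4, Lig1 and Chaf1b), and above for 0, beside 6.91% and 7.33% of all genes tested. The 95% intervals of the 47 fold changes all lay between -0.89 and 0.87, so a change of 2-fold or more was outside the interval of every gene.

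**Figure D1:**
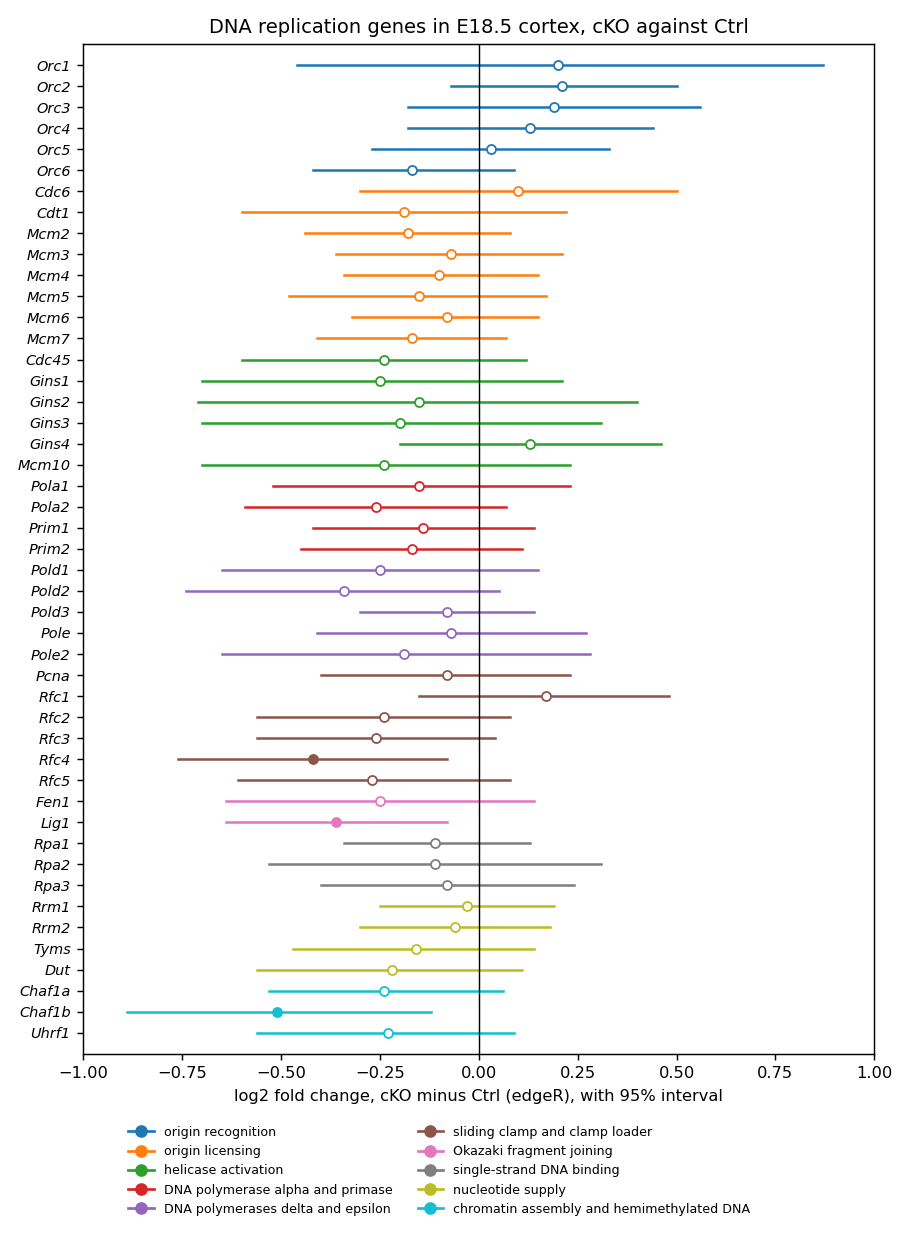
Log2 fold change (cKO minus Ctrl, x axis) of each of the 47 genes with its 95% interval from edgeR, coloured by role, with filled points for an unadjusted p under 0.05. Most points sit left of 0, the intervals of 44 genes reach across it, and 5 of the 6 origin recognition genes sit to its right.

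Summed over the 47 genes, the level was 1600, 1680 and 1550 CPM in the Ctrl libraries and 1500, 1490 and 1540 CPM in the cKO libraries. The means were 1610 ± 67.2 and 1510 ± 24.2 CPM (SD, n = 3), a change of -6.21%. The groups did not overlap, but the lowest Ctrl library and the highest cKO library were close together. Relative to the Ctrl mean, the median gene stood at 0.01, 0.14 and -0.11 (log2) in Ctrl and at -0.17, -0.16 and -0.11 in cKO, so that Ctrl replicate 3 was level with cKO replicate 3. Ctrl replicate 2 had the highest of the Ctrl values for 31 of the 47 genes (66.0%), compared with 43.5% of all genes tested. Without that library the median fold change was -0.07, and without Ctrl replicate 3 it was -0.21. Between libraries with the same replicate number, the median difference of the 47 genes (log2 of CPM plus 0.5) was -0.15, -0.29 and -0.03.

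The direction also depended on the scale. In TPM, where each value is divided by transcript length and the library sums to a fixed total, the 47 genes summed to 1690 to 1750 TPM in Ctrl and 1710 to 1770 TPM in cKO. On the log2(TPM + 1) scale the median fold change of all genes tested was 0.14, that of the 47 genes was 0.01, and the difference between them was -0.14. On that scale 23 of the 47 genes had a negative fold change, with 0 lower and 1 higher (Gins4) at an unadjusted p under 0.05 by limma, where 1.5% of all genes tested were lower and 8.83% higher. The median of the 47 genes was thus lower than that of all genes tested on both scales, while its sign depended on the scaling. In the count fit without Ctrl replicate 2, the difference between the 2 medians was -0.0761. The median of the 47 genes in log2 CPM had an SD between replicates of 0.0927, and the difference was not tested.

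**Figure D2:**
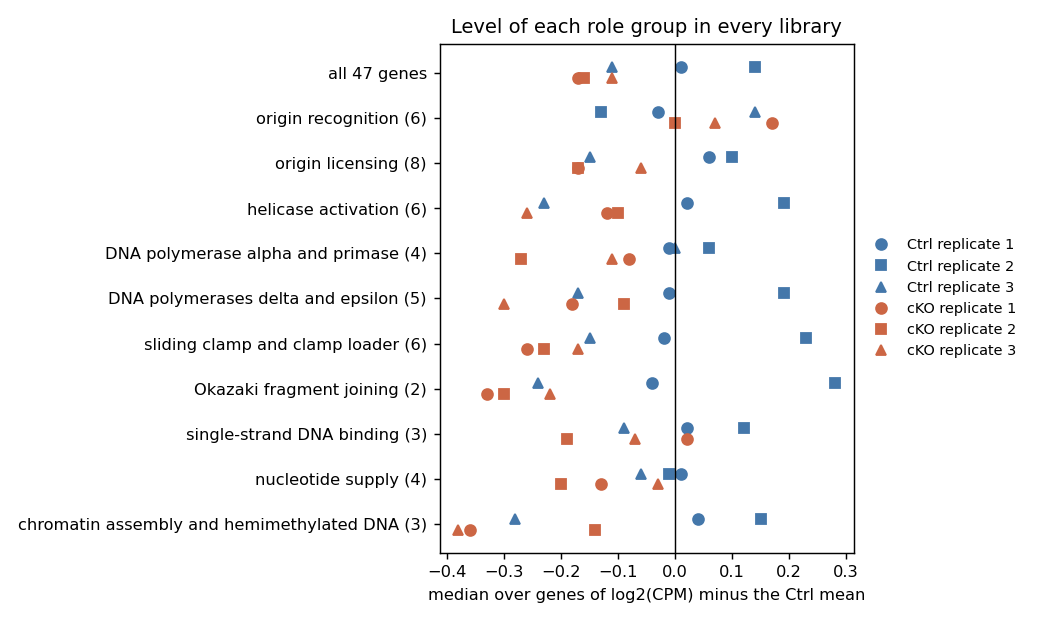
Median over the genes of a role group of log2 CPM minus the Ctrl mean (x axis), one point per library, with the number of genes in parentheses. The cKO points for all 47 genes lie at -0.17, -0.16 and -0.11, and the Ctrl points spread from -0.11 to 0.14.

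Levels of different genes were compared in TPM. Pcna, which encodes the sliding clamp, was the most abundant of the 47 transcripts, at 221 ± 21.8 TPM in Ctrl and 234 ± 13.7 TPM in cKO (SD, n = 3). Orc1, the origin recognition subunit that is known to be lost after S phase begins, was the least abundant at 1.19 ± 0.167 and 1.44 ± 0.531 TPM. The ratio of their mean levels was 174. Mcm7 followed Pcna at 135 ± 1.72 and 134 ± 1.07 TPM, well above the other subunits of the same ring, which ranged from 21.4 TPM (Mcm5) to 54.0 TPM (Mcm6) in Ctrl. Rpa3, the small subunit of the single-strand binding complex, was next at 75.9 ± 4.07 and 80.7 ± 6.65 TPM. Rfc2 at 71.8 ± 6.56 and Rrm2 at 66.0 ± 7.16 TPM in Ctrl were neighbours that did not differ beyond their spread. The median of the 47 mean levels was 27.2 TPM, with 10 genes above 50 TPM and 8 below 10 TPM.

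**Figure D3:**
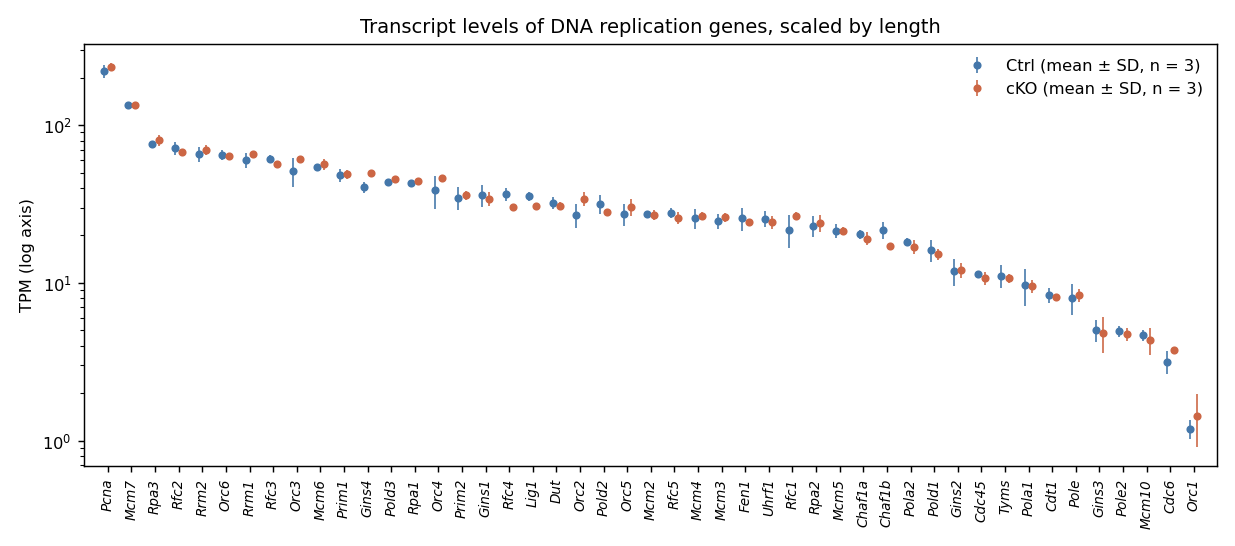
Mean TPM (y axis, log scale) of each gene in Ctrl and cKO with the SD of 3 libraries, ordered by the mean over all libraries. Pcna and Mcm7 stand above the rest, and Cdc6 (3.17 TPM in Ctrl) and Orc1 stand at the low end.

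The origin recognition complex, which binds origins and recruits the loading factors, was the only role group with a positive median fold change, 0.16 over its 6 subunits, whereas the other 9 groups ranged from -0.30 to -0.11. Orc2 had the smallest p of the group, with 38.8, 36.6 and 46.2 CPM in Ctrl and 45.4, 43.8 and 51.4 CPM in cKO. Its fold change was 0.21 (SE 0.126, unadjusted p = 0.129, edgeR), and Ctrl replicate 3 lay above 2 of the cKO libraries. Orc1 was measured at 2.26, 2.05 and 1.78 CPM in Ctrl and 3.34, 1.89 and 1.79 CPM in cKO. Its positive fold change of 0.20 (SE 0.293) rested on cKO replicate 1, without which it was -0.14. Orc3, Orc4 and Orc5 had fold changes of 0.19, 0.13 and 0.03, and Orc6, which is less tightly held in the complex than the others, had -0.17. The summed level was 248, 229 and 304 CPM in Ctrl and 282, 274 and 291 CPM in cKO, so Ctrl replicate 3 was the highest of the 6 libraries. Without that library Orc2, Orc3 and Orc4 had an unadjusted p under 0.05 and higher values in cKO, in a fit where 5.98% of all genes tested did so.

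Origin licensing was represented by Cdc6 and Cdt1, which load the helicase, and by the 6 subunits of the MCM ring. All 6 MCM subunits had negative fold changes in a narrow range, from -0.18 for Mcm2 to -0.07 for Mcm3, and none reached an unadjusted p under 0.05. Mcm7 was measured at 134, 155 and 132 CPM in Ctrl and 123, 126 and 126 CPM in cKO. Its groups did not overlap, and its fold change was -0.17 (SE 0.106, unadjusted p = 0.141, edgeR). Mcm2, a widely used marker of cells that are licensed to replicate, had 39.2, 43.0 and 36.5 CPM in Ctrl and 32.6, 35.1 and 37.6 CPM in cKO. The fold change of Mcm2 was -0.18 (SE 0.115, unadjusted p = 0.161, edgeR), and cKO replicate 3 lay above Ctrl replicate 3. Cdt1 stood at -0.19 (SE 0.180) and Cdc6 at 0.10 (SE 0.177), both with intervals across 0.

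Among the factors that activate the helicase, 5 of 6 had negative fold changes and the median was -0.22. Cdc45, which joins the MCM ring as S phase begins, was measured at 9.97, 11.1 and 8.91 CPM in Ctrl and 8.42, 9.32 and 7.66 CPM in cKO. Its fold change was -0.24 (SE 0.159, unadjusted p = 0.168, edgeR), and cKO replicate 2 lay above Ctrl replicate 3. Of the GINS subunits, Gins1, Gins2 and Gins3 stood at -0.25, -0.15 and -0.20, and Gins4 at 0.13. Mcm10, which is needed to fire the assembled helicase, had -0.24 (SE 0.206). These genes were covered by fewer counts than the MCM subunits, and their standard errors, from 0.146 to 0.245, were larger than the 0.105 to 0.145 of that ring.

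The 4 subunits of polymerase alpha-primase, which makes the RNA-DNA primers, all had negative fold changes, from -0.26 to -0.14. Their summed level was 92.5, 92.6 and 93.7 CPM in Ctrl and 86.4, 75.7 and 85.4 CPM in cKO, without overlap. Each of the 4 subunits taken alone overlapped between the groups, and so did their sums in TPM (101 to 120 in Ctrl, 102 to 116 in cKO). The Ctrl sums were close although single subunits were not: in Ctrl replicate 2, Pola1 was the lowest of its Ctrl values, and Pola2 and Prim1 were the highest of theirs. Pola2, the accessory subunit, was measured at 16.5, 20.8 and 17.7 CPM in Ctrl and 15.4, 13.7 and 16.8 CPM in cKO. Its fold change was -0.26 (SE 0.146, unadjusted p = 0.108, edgeR), and cKO replicate 3 lay above Ctrl replicate 1. Pola1, the catalytic subunit, is encoded on the X chromosome, and its fold change was -0.15 (SE 0.166).

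The 5 subunits of polymerases delta and epsilon also had negative fold changes, with a median of -0.19. Pold2, which holds the delta complex together, was measured at 19.2, 24.5 and 15.5 CPM in Ctrl and 15.7, 16.2 and 14.8 CPM in cKO. Its fold change was -0.34 (SE 0.174, unadjusted p = 0.0804, edgeR), and the groups overlapped because Ctrl replicate 3 was as low as the cKO libraries. Pold3 was measured at 57.0, 58.5 and 56.2 CPM in Ctrl and 56.0, 53.6 and 52.9 CPM in cKO. Its groups did not overlap, although its fold change was only -0.08 (SE 0.0961).

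PCNA encircles DNA and tethers the polymerases, and replication factor C opens the ring to load it. Pcna itself was measured at 102, 118 and 82.2 CPM in Ctrl and 100.2, 90.2 and 94.2 CPM in cKO. All of the cKO values lay within the range of the Ctrl values, and the fold change was -0.08 (SE 0.140, unadjusted p = 0.558, edgeR). The small subunits of the loader stood lower than Pcna in fold change, with Rfc2, Rfc3, Rfc4 and Rfc5 at -0.24, -0.26, -0.42 and -0.27. Rfc4 was measured at 16.7, 17.4 and 13.2 CPM in Ctrl and 11.3, 12 and 11.9 CPM in cKO. The fold change of Rfc4 was -0.42 (95% interval -0.76 to -0.08, unadjusted p = 0.0199, adjusted p = 0.608, edgeR), with every cKO library below every Ctrl library. Rfc3 also had separate groups, at 24.2, 30.6 and 24.9 CPM in Ctrl against 21.4, 22.9 and 22.4 CPM in cKO. Rfc1, the large subunit, had a fold change of 0.17 (SE 0.138). Exons of Rfc4 overlap those of Eif4a2, a far more abundant gene with 11244 to 12445 counts and a fold change of 0.00, so reads of the shared stretch may have been split between them.

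Okazaki fragments on the lagging strand are trimmed by Fen1 and sealed by DNA ligase 1, the product of Lig1. Lig1 was measured at 47.5, 52.8 and 40.1 CPM in Ctrl and 36.2, 35.4 and 37.7 CPM in cKO. Its fold change was -0.36 (95% interval -0.64 to -0.08, unadjusted p = 0.0179, adjusted p = 0.604, edgeR), and every cKO library lay below every Ctrl library. Fen1 stood at -0.25 (SE 0.173) with overlapping groups. The single-strand binding complex RPA, which coats the unwound DNA, had fold changes closer to 0, at -0.11, -0.11 and -0.08 for Rpa1, Rpa2 and Rpa3. Rpa1 was measured at 56.0, 58.0 and 51.7 CPM in Ctrl and 48.0, 53.4 and 52.5 CPM in cKO, where 2 of the cKO libraries lay above the lowest Ctrl library.

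The 4 enzymes of nucleotide supply had negative fold changes, of which those of ribonucleotide reductase were close to 0. Rrm1 and Rrm2, the subunits of ribonucleotide reductase, stood at -0.03 (SE 0.0979) and -0.06 (SE 0.107), and Tyms, thymidylate synthase, at -0.16 (SE 0.136). Dut, the dUTPase that keeps uracil out of DNA, was measured at 28.6, 37.7 and 27.3 CPM in Ctrl and 26.5, 25.2 and 28.5 CPM in cKO. Its fold change was -0.22 (SE 0.147, unadjusted p = 0.162, edgeR), and without Ctrl replicate 2, the highest library, it was -0.06.

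The last group acts on chromatin behind the fork and had 3 negative fold changes of 3. Chaf1a and Chaf1b encode subunits of CAF-1, which deposits histones on new DNA, and Uhrf1 binds hemimethylated DNA and recruits the maintenance methyltransferase. Chaf1b had the lowest fold change of the 47 genes, with 16.7, 19.8 and 13.2 CPM in Ctrl and 11, 12.4 and 11.6 CPM in cKO. The fold change was -0.51 (95% interval -0.89 to -0.12, unadjusted p = 0.0159, adjusted p = 0.585, edgeR), and every cKO library lay below every Ctrl library. Chaf1a stood at -0.24 (SE 0.131) and Uhrf1 at -0.23 (SE 0.145). The group summed to 85.3, 94.4 and 73.6 CPM in Ctrl and 68.2, 74.7 and 65.3 CPM in cKO, where cKO replicate 2 lay just above Ctrl replicate 3.

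**Figure D4:**
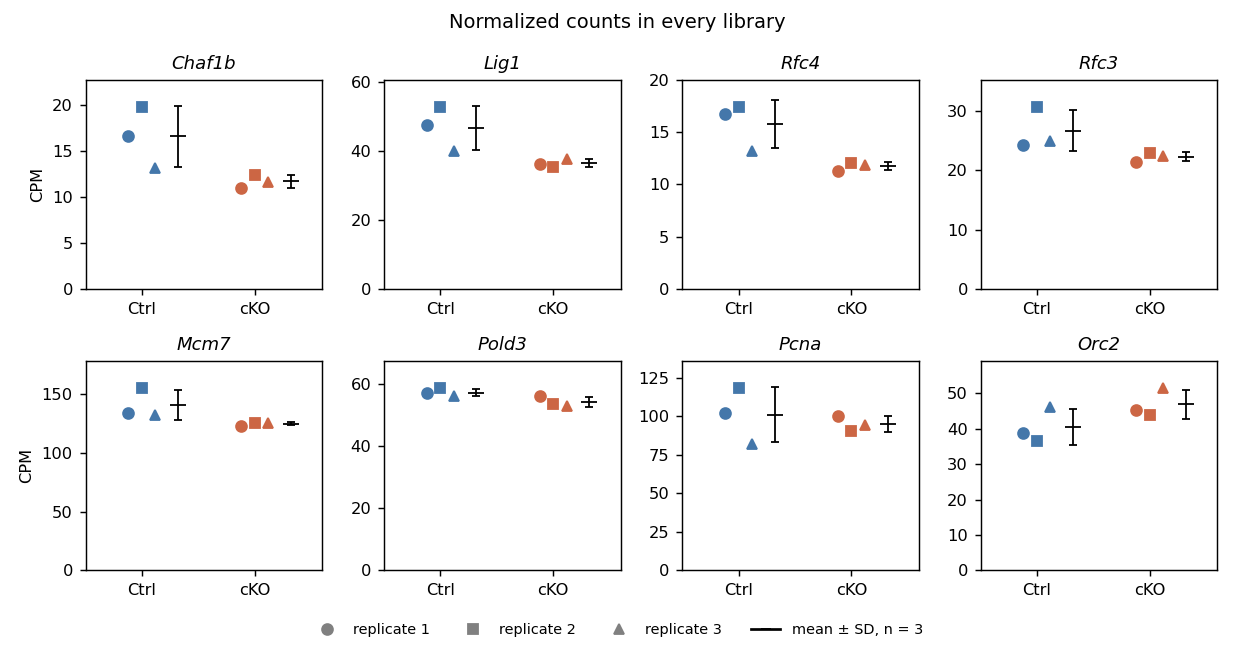
CPM (y axis, from 0) of 8 genes in every library, with the marker shape giving the replicate number and the bar the mean ± SD of 3 libraries. For Chaf1b, Lig1, Rfc4, Rfc3, Mcm7 and Pold3 every cKO point is below every Ctrl point, while Pcna and Orc2 overlap.

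The counts of genes past the threshold moved with single libraries. The 3 genes lower at an unadjusted p under 0.05 became 0 without cKO replicate 1, where 2.23% of all genes tested were lower. Without Ctrl replicate 1 the count was 1 beside 2.77% of all genes, and without Ctrl replicate 3 it was 8 beside 7.97%. Chaf1b was among them in 5 of the 6 fits that left out 1 library. These fits share most of their libraries, and Chaf1b had the smallest unadjusted p of the 47 genes with all libraries, so its recurrence is not separate support. No fit gave any of the 47 genes an adjusted p under 0.05.

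Fold changes were also compared with the composition of the transcripts. The 47 genes had a median GC content of 48.5%, and the origin recognition genes had the lower median of 41.5%, with 36.8% to 46.7% across them. The polymerase alpha-primase genes also had a low median, 43.5%, but all of their fold changes were negative. Across the 47 genes the Spearman correlation of fold change with GC content was -0.42 and with transcript length 0.25, values that describe genes measured in the same 6 libraries. After a smooth trend on length and GC content was removed from each library, the median fold change of the 47 genes was -0.16 and the correlation with GC content was -0.22. The fold changes of Orc1, Orc2, Orc3 and Orc4 were then 0.18, 0.16, 0.18 and 0.11, and those of Orc5 and Orc6 were -0.01 and -0.13. In that fit 8 genes were lower (Pola1, Pola2, Pold2, Rfc3, Rfc4, Lig1, Chaf1a and Chaf1b) and 1 was higher (Gins4) at an unadjusted p under 0.05, where 7.16% of all genes tested were lower and 5.27% higher. The smallest adjusted p was 0.132, for Lig1.

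**Figure D5:**
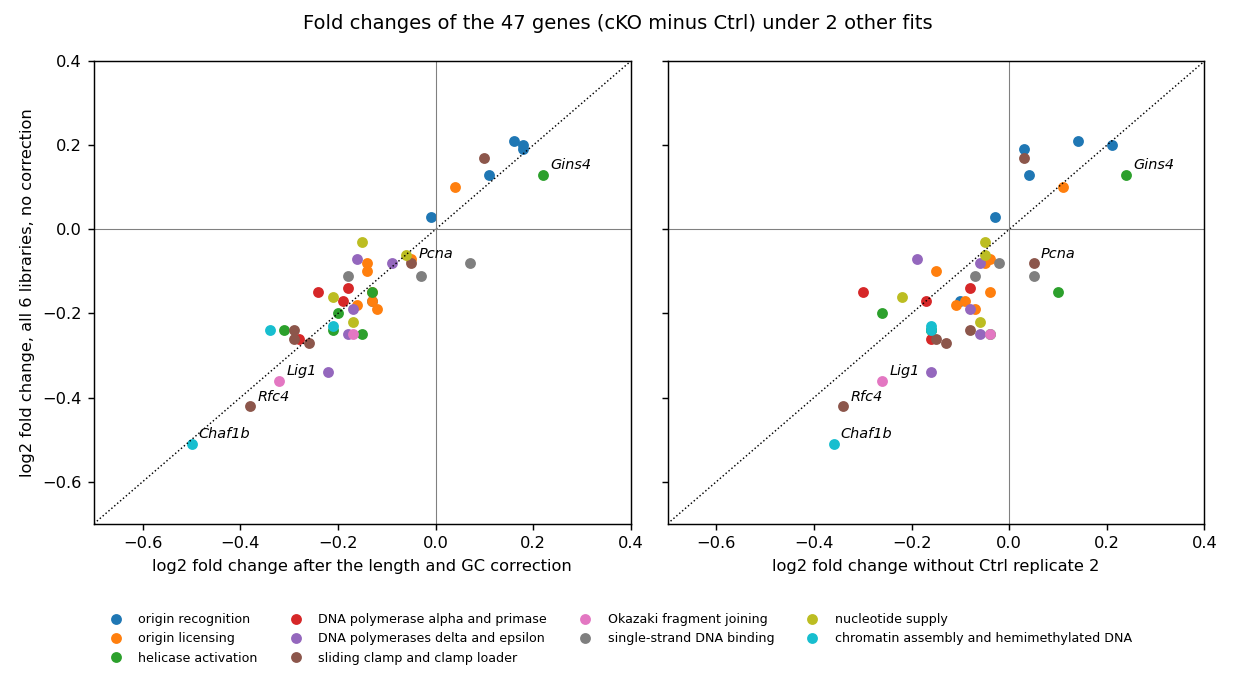
Log2 fold change of the 47 genes in all 6 libraries (y axis) against the fold change after the length and GC correction (left) and without Ctrl replicate 2 (right), coloured by role, with a dotted line of equality. Points stay near the line on the left, and on the right most of the negative ones move towards 0.

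Promoter windows from RefSeq (GRCm38.p6, 250 bases before to 50 after the transcription start) were read for 40 of the 47 genes, in 49 windows. An E2F motif, spelled TTTCCCGC, TTTCGCGC, TTTGCCGC or TTTGGCGC on either strand, was present in 16 of the 49 windows (32.7%), compared with 2.26% of the 32851 windows of all genes. The CCAAT box, also searched on both strands, was found in 57.1% of the windows of replication genes and in 37.4% of all windows. The median fold change was -0.16 for the 16 genes with an E2F motif in these spellings and -0.16 for the 24 without. A search for exact spellings in short windows cannot sort genes by whether E2F factors control them, so nothing is concluded from these medians. The 25 genes with a CCAAT box had a median of -0.14 and the 15 without had -0.22. The windows of Chaf1b and Rfc4 held no E2F motif in the exact spellings searched, and looser spellings were not searched. The windows below belong to the 4 genes with the smallest p among those that held one, and are shown because they carry the sequence feature that many of the 47 genes have in common. Each is printed 5′ to 3′ on the strand of the gene, with E2F motifs in capitals. Lig1 lies at chr7:13278576-13278875 on the plus strand, Rfc3 at chr5:151651159-151651458 on the minus strand, Mcm7 at chr5:138171834-138172133 on the minus strand and Uhrf1 at chr17:56304063-56304362 on the plus strand.
Lig1: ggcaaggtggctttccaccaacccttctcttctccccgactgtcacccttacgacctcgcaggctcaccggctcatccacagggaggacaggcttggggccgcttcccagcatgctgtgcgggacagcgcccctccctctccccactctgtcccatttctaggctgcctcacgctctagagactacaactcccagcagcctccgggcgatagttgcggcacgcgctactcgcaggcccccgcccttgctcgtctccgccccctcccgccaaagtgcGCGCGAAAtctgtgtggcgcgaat
Rfc3: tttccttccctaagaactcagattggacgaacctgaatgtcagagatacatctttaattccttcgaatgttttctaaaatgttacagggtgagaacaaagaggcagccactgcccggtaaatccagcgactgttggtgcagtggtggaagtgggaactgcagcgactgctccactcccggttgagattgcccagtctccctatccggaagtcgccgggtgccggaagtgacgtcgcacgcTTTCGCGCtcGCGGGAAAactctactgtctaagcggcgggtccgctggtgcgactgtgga
Mcm7: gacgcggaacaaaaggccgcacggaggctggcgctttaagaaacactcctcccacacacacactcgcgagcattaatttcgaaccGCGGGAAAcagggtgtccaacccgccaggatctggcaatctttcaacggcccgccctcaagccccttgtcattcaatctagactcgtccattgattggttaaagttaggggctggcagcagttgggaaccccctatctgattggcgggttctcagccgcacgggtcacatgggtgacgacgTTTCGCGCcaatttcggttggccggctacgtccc
Uhrf1: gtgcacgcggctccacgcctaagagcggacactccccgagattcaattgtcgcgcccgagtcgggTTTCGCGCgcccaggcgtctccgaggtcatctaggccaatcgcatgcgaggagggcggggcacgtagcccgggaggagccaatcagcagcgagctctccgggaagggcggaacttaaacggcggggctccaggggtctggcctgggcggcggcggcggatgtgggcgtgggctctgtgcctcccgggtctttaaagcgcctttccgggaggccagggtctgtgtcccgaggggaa
Counted from the transcription start at 0, the motifs of Rfc3 began at -10 and 0, those of Mcm7 at -165 and 16, and that of Uhrf1 at -185. In Lig1 the motif began at 26 from the start that this window belongs to, 1 of several starts listed for the gene. Mcm7 and Uhrf1 also had another listed start each, and the windows of those starts held no E2F motif.

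The 47 genes lie on 14 chromosomes, with 8 of them on chromosome 5. Chaf1a and Uhrf1 are neighbours on chromosome 17, with 231 kb between them. Exon bases are shared with another annotated gene for 17 of the 47, among them Lig1 with Zswim9, Mcm7 with Cops6 and Ap4m1, and Orc2 with Nif3l1. Since no source states whether strand was used in counting, reads of such stretches may be counted for either gene. Chaf1b shares no exon bases with another gene.

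Related genes were looked at beside the 47. Over all genes tested, 49.4% had a negative fold change, and 3.49% were lower and 3.14% higher at an unadjusted p under 0.05. Of 41 other genes of replication, covering fork protection, termination and regulatory kinases, 26 had a negative fold change, 2 were lower and 0 higher at an unadjusted p under 0.05, and the median was -0.05. Those lower were Clspn, a fork mediator of the checkpoint (-0.35, unadjusted p = 0.0263, adjusted p = 0.645, edgeR), and Timeless, which stabilizes the fork (-0.25, unadjusted p = 0.0434, adjusted p = 0.731, edgeR). Among 21 genes of the E2F and RB families and their cofactors, the median was -0.01, with 1 gene lower and 0 higher. That gene was E2f1, an activator of S phase genes, with 14.9, 18.1 and 15.5 CPM in Ctrl and 11.9, 13.7 and 11 CPM in cKO. Its groups did not overlap, and its fold change was -0.40 (unadjusted p = 0.0242, adjusted p = 0.628, edgeR). Of 29 mitosis genes, 24 had a negative fold change with a median of -0.10, and 2 were lower and 0 higher at that threshold. They were Cdc25c (-0.39, unadjusted p = 0.0289, adjusted p = 0.666, edgeR) and Cenpf (-0.34, unadjusted p = 0.0468, adjusted p = 0.736, edgeR). For Cenpf, a kinetochore protein, the groups overlapped, with 42.0 CPM in Ctrl replicate 2 and 40.7, 42.6 and 44.1 CPM in cKO. Its fold change was -0.52 with the length and GC correction (adjusted p = 0.0355, edgeR), where 152 of all genes passed. It was -0.49 without Ctrl replicate 2 (adjusted p = 0.0273, edgeR), where 122 passed. With 1 library left out its fold change ranged from -0.493 to -0.248.

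Markers of the cells that replicate DNA were measured in the same libraries. The 10 radial glia markers summed to 1500 to 2160 TPM in Ctrl and 1690 to 2030 TPM in cKO, with a median fold change of -0.09. Of these 10 markers, 6 had negative and 4 positive fold changes. One of them, Pax6, was higher in cKO (0.31, unadjusted p = 0.0204, adjusted p = 0.608, edgeR). Over all genes tested, 3.14% were higher at an unadjusted p under 0.05. The 6 intermediate progenitor markers summed to 312 to 337 TPM in Ctrl and 311 to 381 TPM in cKO. The ventral progenitor markers summed to 207 to 254 TPM in Ctrl and 157 to 262 TPM in cKO, and 4 of the 5 tested had negative fold changes. The 8 markers of projection neurons, which define the labelled tissue, summed to 4460 to 4730 TPM in Ctrl and 4130 to 4620 TPM in cKO. On the CPM scale of the fold changes they summed to 4790, 4820 and 4730 in Ctrl and 3990, 4440 and 4220 in cKO, without overlap. That was a change of -11.7%, with 7 of 8 fold changes negative and a median of -0.13, beside -6.21% and -0.16 for the 47 replication genes. In summed CPM the radial glia markers changed by -3.32%, the intermediate progenitor markers by -1.83% and the ventral progenitor markers by -18.5%. Their median fold changes were -0.09, 0.01 and -0.30, and the CPM sums of all of these progenitor lists overlapped between the groups. Endothelial and pericyte markers summed to 219 to 250 TPM in Ctrl and 252 to 313 TPM in cKO, and microglia markers to 44.8 to 49.5 TPM and 55.1 to 58.0 TPM, without overlap in either case. In CPM both lists overlapped, at 315 to 382 and 359 to 448 for endothelial and pericyte markers and 42.6 to 50.6 and 47.6 to 50.3 for microglia markers. Pdgfrb, a pericyte receptor, was higher in cKO (0.27, unadjusted p = 0.0448, adjusted p = 0.731, edgeR), as was the astrocyte water channel gene Aqp4 (0.74, unadjusted p = 0.0392, adjusted p = 0.718, edgeR). Aqp4 had 3.2, 2.11 and 2.6 CPM in Ctrl and 6.38, 3.21 and 3.58 CPM in cKO, and 3 of the 5 astrocyte markers had negative fold changes. Oligodendrocyte precursor, astrocyte, erythroid and meningeal markers overlapped between the groups, and choroid plexus markers stayed at or below 1.27 TPM in every library. No marker was at 0 in all libraries. In whole cortex, fewer cycling cells and less replication mRNA per cell cannot be told apart, and the part of cell composition in the fold changes of the 47 genes was not tested.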

How the data were processed

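The authors deposited, for each gene and library, an estimated count (RSEM, not normalized between libraries), a TPM value and an FPKM value. The submitters' processing notes name HISAT2 2.2.1, Bowtie2 2.4.5, RSEM 1.3.1 and the builds GRCm38 and mm10. Annotation and strandedness are not given in the sources used here. TPM values served to compare levels between genes, and FPKM values were not used further.

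Estimated counts were rounded (89.4% were whole), filtered with filterByExpr, scaled by TMM and tested in R 4.3.3 by the quasi-likelihood method of edgeR 4.0.16 without a block, with p-values adjusted over 13570 genes (Benjamini-Hochberg). Fold changes are cKO minus Ctrl. Intervals cover the spread between libraries. The study's methods speak of independent replicate experiments without saying how many embryos made a library, and replicates of a group differed beyond counting noise. Over the genes tested, the chi-square per degree of freedom was 41.5 and 65.4 for the pairs of Ctrl libraries that include Ctrl replicate 2. It was 10.5 for Ctrl replicates 1 and 3, and 3.51 to 9 for the pairs of cKO libraries. Length and GC content came from GENCODE M21 (97.6% of genes, mgcv 1.9.3). The alternatives were a replicate block, RLE, DESeq2 1.42.0, other filters, TMM without translation genes, the length and GC correction, limma 3.58.1 on log2(TPM + 1) and each library left out. The code was tested on simulated data.

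The 47 genes, the lists and the tests were chosen with earlier results of these data known. Values in every library are given for genes with an unadjusted p under 0.05, the smallest p of each role group, the highest and lowest TPM, Pcna, Mcm2 and Ybx1. Rfc3 and Pold3 were added after their values were seen. Of the other lists, genes with an unadjusted p under 0.05 are named.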

Additional observations from a re-analysis of the deposited data

How the results depend on the processing

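None of the 47 genes had an adjusted p under 0.05 in any of the 15 alternatives, and of 705 fold changes of single genes 675 kept their side of 0 and of the threshold. Among all genes, 10 passed in the fit as reported, 93 with DESeq2, 152 with the length and GC correction, and 8 to 122 when 1 library was left out (122 without Ctrl replicate 2). The count of replication genes lower at an unadjusted p under 0.05 was 3 as reported, 8 with the length and GC correction, 0 in TPM and 0 to 8 when 1 library was left out, and the count higher was 0, 1, 1 and 0 to 3. In the fits without 1 library, 1.89% to 7.97% of all genes were lower and 1.66% to 5.98% higher at that threshold. Their median fold change was -0.16 as reported, 0.00591 in TPM and -0.213 to -0.0715 when 1 library was left out. In TPM the medians of the other replication genes, the E2F and RB genes and the mitosis genes were 0.0926, 0.156 and 0.0346. With the length and GC correction the first of these was -0.0857 and the next -0.0887, and with 1 library left out they ranged from -0.0966 to -0.0421 and from -0.0551 to 0.0582. The mitosis median was -0.159 with the correction and -0.159 to -0.0501 with 1 library left out.

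The replicate numbers were not taken to pair the libraries, since the correlations of the deviations of same-numbered libraries were 0.0884, 0.0615 and 0.23, although each Ctrl library correlated best with its own number. The design text speaks of 3 sequencing batches and does not tie them to the numbers. With the number as a block, 11 of all genes passed, 3 replication genes were lower at an unadjusted p under 0.05 (3.64% of all genes were), and the E2F and RB median was 0.00795. Where the block was joined with that correction, 162 of all genes passed, 7 replication genes were lower beside 8.0% of all genes, Cenpf stood at -0.514 (adjusted p = 0.0376, edgeR), the E2F and RB median was -0.0876, Orc5 stood at -0.0148 and Rpa3 at 0.0734. The correction alone gave -0.0128 and 0.0705 for these genes.

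In TPM the fold change turned positive for Mcm3 (0.0753), Mcm4 (0.0486), Mcm5 (0.00591), Mcm6 (0.0662), Gins2 (0.0405), Pola1 (0.0108), Prim1 (0.0149), Prim2 (0.0561), Pold3 (0.0593), Pole (0.0691), Pcna (0.0829), Rpa1 (0.0399), Rpa2 (0.0609), Rpa3 (0.0867), Rrm1 (0.119) and Rrm2 (0.0862). With 1 library left out the range crossed 0 for Orc1 (-0.142 to 0.363), Orc5 (-0.0714 to 0.0871), Cdc6 (-0.0166 to 0.21), Gins2 (-0.326 to 0.0991), Pole (-0.194 to 0.00959), Pcna (-0.211 to 0.0455), Rpa2 (-0.269 to 0.0497) and Rrm1 (-0.0546 to 0.0194). The cause of these shifts was not tested. Counting error weighs most on the genes with the fewest counts, such as Orc1 with 26 to 54 counts per library, and 3 libraries per genotype limit all intervals.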

Other observations

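A list of 22 DNA repair and checkpoint genes was added after the values of the other lists were seen, and nothing is supported with it. Of these, 12 had a negative fold change, 0 were lower and 0 higher at an unadjusted p under 0.05 with edgeR, 0 passed the adjusted threshold, and the median was -0.03. Their summed level was 466, 414 and 523 CPM in Ctrl and 441, 461 and 474 CPM in cKO. Ctrl replicate 2 was the highest of the Ctrl libraries for 0 of these 22 genes and Ctrl replicate 3 for 14, whereas Ctrl replicate 2 was the highest for 31 of the 47 replication genes.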
